A study of Mus musculus with 12 samples.

Results

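The interaction of human beta-defensin 3 (hBD3) with Kdo2-lipid A (KLA) was examined in mouse bone marrow-derived macrophages (BMDM). It is the effect of the peptide in KLA-stimulated cells minus its effect in resting cells, that is, KLA plus hBD3 minus KLA, less hBD3 minus untreated. All 12 arrays of the series entered, placed by treatment label, and every gene on the array was a candidate. Of 19057 genes measured, 1048 had an interaction past an adjusted p of 0.05 (limma, Benjamini-Hochberg over all 45281 probes), and the 1040 of these with a detected signal (all 3 arrays of some group) are described here. Balb/c marrow was grown in 20 ng/ml M-CSF, the factor that drives precursors to become macrophages, and all cells were treated for 6 h. The groups, with 3 arrays each, were KLA plus hBD3 (no dose in the label), KLA at 50 ng/ml, hBD3 (5 mg/ml in the labels, micrograms per ml in the methods) and untreated. The methods name cells from 3 separate mice. For KLA replicates 2 and 3 the sample title names the peptide as well, and the treatment label was followed.

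KLA is the membrane anchor of bacterial endotoxin, lipid A carrying its inner Kdo sugars. It engages Toll-like receptor 4 (TLR4) with its co-receptors Cd14 and MD-2, and the adaptors MyD88 and TRIF then start NF-kB, AP-1 and interferon-regulatory signalling. Macrophages answer with cytokines, chemokines and enzymes, and they switch down many genes of the resting state. hBD3 is a cationic antimicrobial peptide of human skin and mucosa. An interaction below 0 means that the peptide lowered a signal more, or raised it less, with KLA than without it, and an interaction above 0 means the reverse.

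Signals are log2 of quantile-normalized intensity. Between 12363 and 15629 probes were detected (detection p under 0.01) in an array. A probe not detected in any array of a group had only an upper bound there, and the floor, the lowest signal of any detected probe, lay between 6.03 and 6.34 in these arrays. Macrophage markers were present throughout, with 16 of 17 detected, Csf1r, Adgre1 and Spi1 among them. Of 13 neutrophil markers 3 were detected (Camp, S100a8 and Lcn2), of 11 dendritic cell markers 2 (Fscn1 and Batf3), of 9 T and NK cell markers 1, and of 7 B cell and 5 erythroid markers 0.

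Both detected dendritic cell markers were higher in KLA than in untreated cells and had an interaction called below 0. Fscn1 had -2.94 (called in 19 of 23 other settings) and Batf3 -1.70, on the same side as the inflammatory lists. Other called markers were Lcn2 (neutrophil, -3.37), Pdgfrb (stromal, -1.62) and Il7r (T and NK cell, 0.77). Over all detected genes 6.09% were called below 0 and 6.48% above, and nothing is read from these few calls. The part of such cells in the inflammatory lists was not tested.

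KLA replicate 3 and hBD3 replicate 3 stood apart by a count of genes, and hBD3 replicate 1 by its cytokine signals. The count took genes more than 1 log2 from the mean of the other 2 arrays of the group, where those 2 lay close together. It was 272 for KLA replicate 3 and 212 for hBD3 replicate 3. KLA plus hBD3 replicate 3 had 78, untreated replicate 3 had 50, hBD3 replicate 1 had 10, and the remaining arrays had 0 to 33. KLA replicate 3 is also 1 of the 2 arrays with the peptide in the title. Without it 869 of the 1040 genes described here were still called, against 808 without hBD3 replicate 3 and 729 without hBD3 replicate 1. In hBD3 replicate 1 the inflammatory cytokine list averaged 7.18, against 6.71 and 6.54 in hBD3 replicates 2 and 3 and 6.60 to 6.69 in untreated arrays. In hBD3 replicate 3 the stromal marker list averaged 8.13, against 6.67 and 6.28 in replicates 1 and 2 and 6.21 to 6.52 in untreated arrays. Of the 15 stromal markers 8 were detected, and Lum, Pdgfra, Postn and Thy1 were not detected in any array. What raised the list in this array, and its part in any interaction, was not tested. For named genes whose call depended on such an array, the value without it or the number of other settings that kept the call is given.

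Among the 1040 genes, 504 had an interaction below 0 and 536 above it. Over all 19057 genes these shares were 2.69% below and 2.81% above, and over the 8271 detected genes 6.09% and 6.48%. Of 1542 probes called, 48.8% lay above 0, against 60.5% of the 425 called when arrays were median-centred instead of quantile-normalized. The last gene called was Mark3 at -0.73 (adjusted p = 0.04994), and the first not called was Slc30a7 at -0.40 (adjusted p = 0.05001). The peptide's difference in KLA-stimulated cells was called in nearly all members, lower for 470 of the 504 and higher for 490 of the 536. Of the 8271 detected genes 918 were called lower and 1113 higher, and of all genes 4.97% and 5.85%. This difference is a part of the interaction that picked the members, so nothing is read from these counts. In resting cells, hBD3 minus untreated, 1 gene of the 1040 was called, and 0.00525% of all genes. The spread between hBD3 arrays entered that comparison, with 3309 of 45281 probes at an unadjusted p under 0.05.

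**Figure D1:**
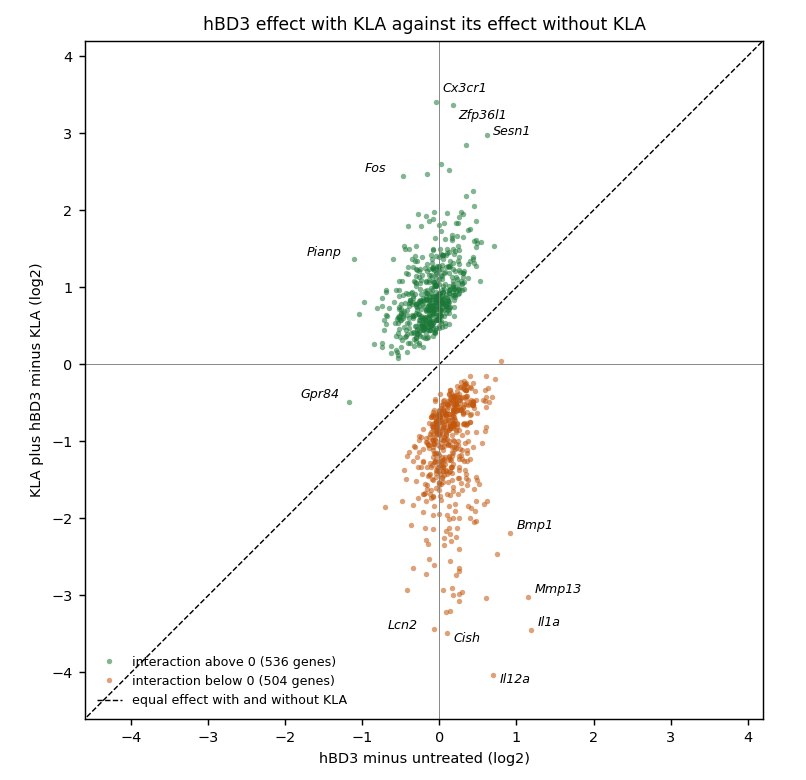
Each point is 1 of the 1040 genes, with hBD3 minus untreated on the x axis and KLA plus hBD3 minus KLA on the y axis (both log2). The dashed line marks an equal effect with and without KLA, and the vertical distance to it is the interaction. The 504 genes below 0 lie under the line with a median y of -0.91 and a median x of 0.12, and the 536 genes above 0 lie over it with medians of 0.83 and -0.10.

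Most members were genes that KLA itself moved. KLA minus untreated was higher for 486 of the 504 genes with an interaction below 0. It was lower for 517 of the 536 genes with one above 0. Of the 8271 detected genes 1700 were higher and 2121 lower, and of all genes 9.7% and 11.6%. Both comparisons hold the KLA arrays, as does the interaction, so these counts are not independent of it. Under median centring 15% of the probes called for KLA minus untreated were higher, against 46.1% as normalized. For the genes below 0, the median group mean was 7.70 with KLA plus hBD3, 8.87 with KLA, 7.27 with hBD3 and 7.16 in untreated cells. For the genes above 0, it was 9.24 with KLA plus hBD3, 8.18 with KLA, 9.59 with hBD3 and 9.68 in untreated cells. The median over genes of the KLA difference, which need not equal the difference of these medians, was 0.24 with the peptide (KLA plus hBD3 minus hBD3) against 1.28 without it in the first set, and -0.18 against -1.16 in the second. By group mean, KLA was the highest of the 4 groups in 488 of the 504 genes, and the lowest in 518 of the 536. The share over all detected genes was not counted. The gap between the KLA difference with and without the peptide is the interaction itself, which picked these genes. The same group means set their order, so nothing is read from these medians or counts.

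Beside the counts of this list and those that follow stand the shares of all detected genes called, 6.09% below 0 and 6.48% above. The inflammatory cytokines had 13 of 24 measured members called below 0 and 0 above, with a median interaction of -1.35 against 0.00 over all detected genes. Il12a, the p35 subunit of interleukin-12, had the most negative interaction of all. Its signal was 8.52, 8.81 and 8.56 with KLA plus hBD3, 12.74, 12.29 and 12.97 with KLA, 7.75, 5.96 and 5.79 with hBD3, and 5.69, 5.95 and 5.76 in untreated cells. The KLA arrays did not overlap those of any other group, and hBD3 replicate 1 was above the other resting arrays. The interaction was -4.74 ± 0.56 (SE, adjusted p = 0.000758) and -4.11 without hBD3 replicate 1. Untreated cells did not detect the gene, so KLA cells were at least 96.5-fold above them, and with undetected signals at the floor the interaction was -4.47, with no test.

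Il27, the p28 subunit of interleukin-27, and its partner Ebi3 were both called. Il27 had 8.47, 8.64 and 7.80 with KLA plus hBD3, 11.75, 10.98 and 11.39 with KLA, 6.56, 5.92 and 6.00 with hBD3, and 5.96, 5.79 and 5.94 in untreated cells. These groups did not overlap except hBD3 and untreated, and the interaction was -3.33 ± 0.34 (SE, adjusted p = 0.000359, or -3.16 at the floor). Ebi3 had -1.62 ± 0.25 (SE, adjusted p = 0.00359). Csf2, which encodes GM-CSF, was detected in all 3 KLA arrays and in none with KLA plus hBD3. It had 5.89, 5.80 and 5.88 with KLA plus hBD3, 9.16, 8.10 and 9.27 with KLA, 6.16, 5.68 and 5.69 with hBD3, and 5.66, 5.69 and 5.63 in untreated cells. KLA cells were at least 6.29-fold above KLA plus hBD3 cells and at least 6.82-fold above untreated cells, and the interaction was -3.17 ± 0.34 (SE, adjusted p = 0.000507, or -2.42 at the floor).

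Il6, a pyrogenic cytokine, had an interaction of -3.07 ± 0.35 (SE, adjusted p = 0.000667), and Osm, a cytokine of the same family, -2.37 ± 0.11 (SE, adjusted p = 5.44e-06). Il18, whose product is matured by the inflammasome, had -2.50, Csf1, the macrophage growth factor itself, -1.78, and Il23a, the p19 subunit of interleukin-23, -1.51. Il6, Csf1 and Il23a were detected in 6, 7 and 5 of the 12 arrays, so their resting levels are partly upper bounds, and at the floor their interactions were -2.79, -1.63 and -1.49. Ifnb1, interferon beta, had 6.77, 6.39 and 6.27 with KLA plus hBD3, 8.34, 7.52 and 7.98 with KLA, 5.83, 5.74 and 5.75 with hBD3, and 6.01, 5.87 and 5.58 in untreated cells. The KLA arrays lay above all others, and the interaction was -1.43 ± 0.27 (SE, adjusted p = 0.012, or -1.49 at the floor).

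Il1a, interleukin-1 alpha, had 9.99, 9.98 and 9.67 with KLA plus hBD3, 14.03, 13.55 and 12.42 with KLA, 9.26, 6.23 and 5.99 with hBD3, and 5.95, 5.96 and 5.99 in untreated cells. hBD3 replicate 1 alone made the hBD3 group wide. The interaction was -4.64 ± 0.96 (SE, adjusted p = 0.0212). It was -3.59 (adjusted p = 0.00311) without hBD3 replicate 1, -4.54 at the floor, and it lost its call without KLA plus hBD3 replicate 2 or 3 or without KLA replicate 1 (adjusted p up to 0.0579), and under neqc normalization (0.0826).

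**Figure D2:**
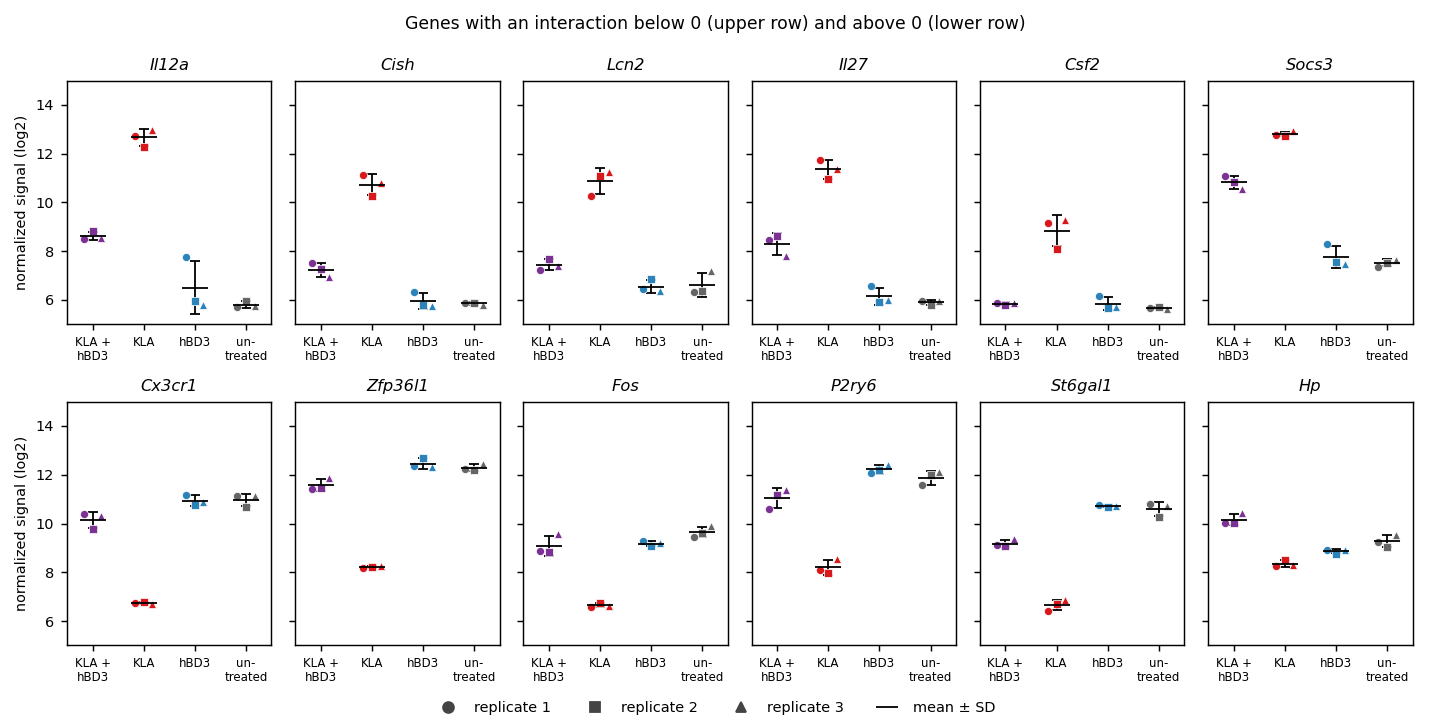
Normalized signal (log2, y axis) of 12 named genes in the 4 groups (x axis), with 1 point an array and the bar giving the mean ± SD (n = 3). In the upper row the KLA arrays sit above all other arrays, as for Il12a at 12.29 to 12.97, and in the lower row below them, as for Cx3cr1 at 6.68 to 6.79.

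Some of the strongest KLA-induced cytokines were not called, and their hBD3 arrays differed widely. Tnf had 13.24, 13.38 and 13.33 with KLA plus hBD3, 14.39, 14.42 and 14.44 with KLA, 11.12, 9.31 and 8.21 with hBD3, and 9.43, 9.46 and 9.25 in untreated cells. KLA plus hBD3 lay below KLA in all arrays, and the hBD3 arrays spanned the untreated ones on both sides. The interaction was -1.27 ± 0.71 (SE, adjusted p = 0.529, 95% interval -2.82 to 0.28), and it was not called without hBD3 replicate 1 (-0.48, adjusted p = 0.621) or without hBD3 replicate 3 (-1.94, adjusted p = 0.0624). With hBD3 replicate 2 alone as the hBD3 group it was -1.03 (adjusted p = 0.0086), in a fit that takes the spread from the other groups.

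The neutrophil-attracting chemokine Cxcl1 had 11.70, 8.85 and 7.42 in the hBD3 arrays, against 7.47, 7.89 and 7.84 in untreated ones, and Cxcl2 had 10.49, 8.05 and 6.35 against 6.93, 7.55 and 6.77. Their interactions were -2.67 ± 1.06 (SE, adjusted p = 0.295) and -3.17 ± 1.03 (SE, adjusted p = 0.161). Without hBD3 replicate 1 they were -1.48 (adjusted p = 0.146) and -2.08 (adjusted p = 0.0867), without hBD3 replicate 3 -3.62 (adjusted p = 0.0313) and -4.15 (adjusted p = 0.00928), and with hBD3 replicate 2 alone -2.19 and -2.93 (adjusted p = 0.00731 for both). Il1b, interleukin-1 beta, had -1.25 (adjusted p = 0.508) with all arrays, -1.91 (adjusted p = 0.0371) without hBD3 replicate 3 and -0.53 (adjusted p = 0.633) without hBD3 replicate 1. Nos2, inducible nitric oxide synthase, depended on KLA replicate 3 instead, at 6.63 against 8.47 in KLA replicate 1. Its interaction was -1.29 (adjusted p = 0.256) with all arrays and -1.82 (adjusted p = 0.000792) without that one. These genes were chosen after their values were seen.

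**Figure D3:**
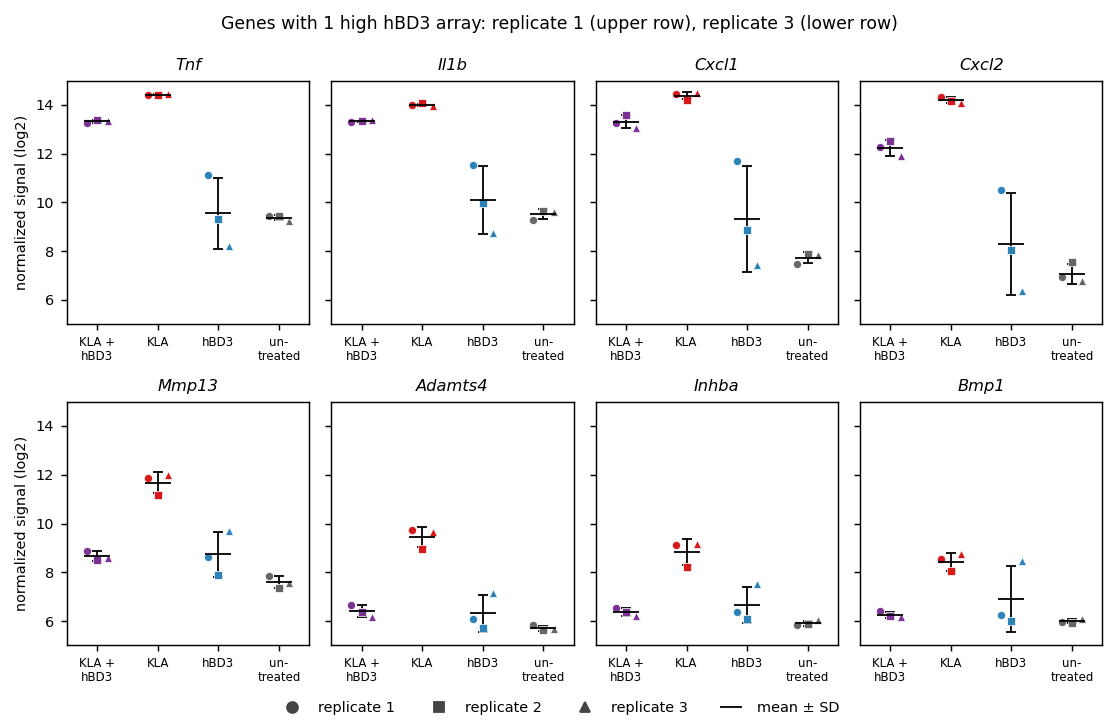
Normalized signal (log2, y axis) of 8 genes in the 4 groups (x axis), with points as arrays and bars as mean ± SD (n = 3). In the upper row hBD3 replicate 1 is the highest hBD3 array, as for Tnf at 11.12 against 9.31 and 8.21, and in the lower row hBD3 replicate 3 is, as for Bmp1 at 8.46 against 6.25 and 6.02.

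Among 31 effector enzymes and secreted proteins 14 were called below 0 and 0 above, with a median of -0.85. Lcn2, a siderophore-binding protein that is also on the neutrophil list, had 7.24, 7.67 and 7.39 with KLA plus hBD3, 10.26, 11.10 and 11.24 with KLA, 6.45, 6.84 and 6.36 with hBD3, and 6.32, 6.37 and 7.17 in untreated cells. Its interaction was -3.37 ± 0.38 (SE, adjusted p = 0.000633), while 10 of the 13 neutrophil markers, Elane, Mpo and S100a9 among them, were not detected. Hdc, the enzyme that makes histamine, had -3.30 ± 0.37 (SE, adjusted p = 0.000562), and Il4i1, a secreted amino acid oxidase, -3.24 ± 0.45 (SE, adjusted p = 0.00211). Edn1, the vasoconstrictor endothelin, had -2.92, Plaur, the urokinase receptor, -2.25, and Ptges, a terminal prostaglandin E synthase, -2.11.

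Some matrix proteases and related secreted factors were high in hBD3 replicate 3, the array with the high stromal marker list. A link between the 2 was not tested. Mmp13, a collagenase, had 8.88, 8.50 and 8.58 with KLA plus hBD3, 11.86, 11.18 and 11.98 with KLA, 8.64, 7.87 and 9.70 with hBD3, and 7.84, 7.35 and 7.58 in untreated cells. Its interaction was -4.17 ± 0.51 (SE, adjusted p = 0.001), and -3.68 (adjusted p = 0.00046) without hBD3 replicate 3. Without that array the values were -3.23 against -3.64 for Adamts4, an aggrecan-cleaving protease, and -2.79 against -3.22 for Inhba, an activin subunit. Bmp1, a procollagen protease, had -3.11 (adjusted p = 0.0266) with all arrays and -2.34 (adjusted p = 0.000528) without it, and it kept its call in 12 of 22 other settings (highest adjusted p = 0.112).

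Of 20 chemokines 5 were called below 0, with a median of -0.79. Without hBD3 replicate 3 the number was 9, without hBD3 replicate 1 it was 3, and without KLA plus hBD3 replicate 2 or 3 it was 2. Ccl17, a ligand of Ccr4, had 5.89, 5.68 and 5.67 with KLA plus hBD3, 8.94, 7.92 and 8.57 with KLA, 6.27, 5.79 and 5.85 with hBD3, and 5.91, 5.72 and 5.64 in untreated cells. No array with KLA plus hBD3 detected it, KLA cells were at least 4.88-fold above, and the interaction was -2.95 ± 0.30 (SE, adjusted p = 0.000365, or -2.19 at the floor). The monocyte attractants Ccl7 and Ccl2 had -1.60 (adjusted p = 0.00998) and -1.30 (adjusted p = 0.0364), and Cxcl9, an interferon-gamma-inducible Cxcr3 ligand, -1.46 (adjusted p = 0.0238). Ccl2 kept its call in 8 of 22 other settings and Cxcl9 in 14 of 23.

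Of 15 co-stimulatory and checkpoint molecules 5 were called below 0, with a median of -0.88. Cd86, the B7 ligand of Cd28, had 8.64, 8.41 and 7.89 with KLA plus hBD3, 9.41, 9.05 and 9.55 with KLA, 8.08, 8.08 and 7.90 with hBD3, and 7.36, 7.54 and 7.53 in untreated cells. The peptide was thus on opposite sides in the 2 states, below KLA in stimulated cells and above untreated in resting cells, with no overlap in either. The interaction was -1.57 ± 0.25 (SE, adjusted p = 0.00407), made of -1.02 (adjusted p = 0.00291) with KLA and 0.55 (adjusted p = 0.48) without. Under median centring it was -1.34 and not called (adjusted p = 0.0605). Cd200, an inhibitory ligand, had -2.50, Slamf1, a self-ligand receptor, -2.34 (-1.82 at the floor), and Cd274, which encodes PD-L1, -1.04 (called in 16 of 23 other settings, not without hBD3 replicate 1). Cd40, the receptor for the T cell ligand Cd154, had -2.08 (adjusted p = 0.222), with hBD3 arrays of 10.49, 8.32 and 7.85, and was not called at -1.27 (adjusted p = 0.138) without hBD3 replicate 1 or at -2.59 (adjusted p = 0.0696) without hBD3 replicate 3.

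The NF-kB and inhibitor list had 6 of 18 members called below 0 and 0 above, with a median of -0.19. Nfkbiz, an atypical nuclear IkB protein, had 10.66, 11.04 and 10.16 with KLA plus hBD3, 12.02, 12.20 and 12.15 with KLA, 9.22, 9.25 and 8.70 with hBD3, and 8.42, 8.70 and 8.58 in untreated cells. Its interaction was -1.99 ± 0.28 (SE, adjusted p = 0.00224). Zc3h12a, the RNase Regnase-1, had -2.25, the IkB genes Nfkbid and Nfkbib -1.21 and -1.19, the subunit gene Rel -1.18, and Tnfaip3, the ubiquitin editor A20, -0.91. Several genes of these lists, such as Nfkb1, had no probe naming them alone and were not analysed here.

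Of 24 feedback inhibitors measured, 18 of them detected, 7 were called below 0 and 2 above, the second count near the 6.48% of all detected genes. Cish, a cytokine-signalling inhibitor induced through STAT5, had 7.50, 7.27 and 6.93 with KLA plus hBD3, 11.11, 10.25 and 10.80 with KLA, 6.32, 5.80 and 5.75 with hBD3, and 5.89, 5.89 and 5.80 in untreated cells. The interaction was -3.58 ± 0.30 (SE, adjusted p = 0.000129, or -3.37 at the floor). Socs3, an inhibitor of interleukin-6 signalling, had -2.25, the MAP kinase phosphatase Dusp2 -2.31 and Gadd45b -2.06. The 2 members above 0 were Dusp6, an ERK phosphatase, at 1.17 (called in 9 of 23 other settings), and Zfp36l1, which had the second largest interaction above 0.

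Zfp36l1 encodes a protein that binds AU-rich elements and promotes mRNA decay. It had 11.43, 11.46 and 11.85 with KLA plus hBD3, 8.16, 8.22 and 8.26 with KLA, 12.37, 12.70 and 12.31 with hBD3, and 12.22, 12.19 and 12.46 in untreated cells. The KLA arrays were the lowest of the 4 groups by a wide margin, and KLA plus hBD3 stood 3.37 above them. The interaction was 3.20 ± 0.18 (SE, adjusted p = 1.24e-05).

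Of 25 AP-1 and related factors, 19 of them detected, 4 were called below 0 and 2 above, against 6.09% and 6.48% of all detected genes, and nothing is read from the 2. Fos, the AP-1 subunit of the immediate early response, had 8.87, 8.84 and 9.56 with KLA plus hBD3, 6.59, 6.72 and 6.63 with KLA, 9.27, 9.08 and 9.20 with hBD3, and 9.44, 9.63 and 9.88 in untreated cells. KLA was the only group under 8, and hBD3 arrays lay below untreated ones without overlap. The interaction was 2.91 ± 0.24 (SE, adjusted p = 0.000119). Klf2, a factor of quiescent cells, was the other member above 0 and kept its call in 15 of 23 other settings (not without hBD3 replicate 1, adjusted p = 0.0516). Batf and Batf3, which pair with other AP-1 proteins, had -2.06 and -1.70, and Ier3, an early response gene, -1.91.

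Of 29 Toll-like receptor pathway genes, 26 of them detected, 4 were called below 0 and 3 above. Over all detected genes the shares were 6.09% and 6.48%, and nothing is read from the 3. Map3k8, the kinase Tpl2 that links NF-kB1 p105 to ERK, had -1.60 ± 0.14 (SE, adjusted p = 0.000129). Tlr13, a receptor of bacterial ribosomal RNA, had 1.67 and Irak1 1.08. Irak2 had -0.57 (adjusted p = 0.0356), with 11.01, 11.06 and 10.97 with KLA plus hBD3 and 11.62, 11.73 and 11.74 with KLA, and it kept the call in 8 of 23 other settings. Myd88 had 0.14 (adjusted p = 0.806, 95% interval -0.19 to 0.48), Cd14 0.27 (adjusted p = 0.578, interval -0.08 to 0.62) and Tlr4 0.68 (adjusted p = 0.162, interval 0.20 to 1.16). Tlr4 was called without hBD3 replicate 3 (0.84, adjusted p = 0.045) and not without hBD3 replicate 1 (0.49, adjusted p = 0.243).

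The share of interferon-stimulated genes called, 1 of 48 measured and 40 detected, was near or under the 2.69% of all genes and 6.09% of detected genes called below 0, and nothing is read from it. KLA minus untreated was higher for 28 of 48 measured, KLA plus hBD3 minus KLA was lower for 5, and the gene called for the interaction was the guanylate-binding protein Gbp5 at -1.72 ± 0.32 (SE, adjusted p = 0.0118). The median interaction of the list was -0.18. Cxcl10, an interferon-induced chemokine, had 0.29 (adjusted p = 0.938, 95% interval -1.30 to 1.89), its untreated arrays spanned 7.97 to 10.11, and its sign changed without hBD3 replicate 3 (-0.16, adjusted p = 0.974).

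G protein-coupled and related receptors carried the most calls above 0 beside the lysosomal list, 9 of 30 above and 2 below. Cx3cr1, the fractalkine receptor, had the largest interaction above 0 of all genes. It had 10.37, 9.78 and 10.30 with KLA plus hBD3, 6.74, 6.79 and 6.68 with KLA, 11.17, 10.74 and 10.90 with hBD3, and 11.11, 10.68 and 11.13 in untreated cells. The KLA arrays lay far below the rest, and hBD3 and untreated arrays overlapped. The interaction was 3.45 ± 0.24 (SE, adjusted p = 3.76e-05). Its ligand Cx3cl1 had the reverse pattern, with group means of 6.46 with KLA plus hBD3, 8.71 with KLA, 6.05 with hBD3 and 5.83 in untreated cells, and an interaction of -2.47 (adjusted p = 0.000129, or -2.22 at the floor). No untreated array and 1 hBD3 array detected Cx3cl1.

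P2ry6, a receptor for UDP, had 10.59, 11.18 and 11.37 with KLA plus hBD3, 8.08, 7.98 and 8.55 with KLA, 12.06, 12.20 and 12.41 with hBD3, and 11.56, 11.97 and 12.12 in untreated cells. Its interaction was 2.50 ± 0.30 (SE, adjusted p = 0.000873). The orphan receptor Gpr162 had 2.63, the ATP-gated channel P2rx4 1.55 (called in 13 of 23 other settings), the sphingosine phosphate receptor S1pr2 1.43 and the proton sensor Gpr65 1.37. Below 0 were Gpr85 at -1.04 (called in 6 of 23 other settings) and Hcar2, the nicotinic acid receptor, at -1.30.

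Gpr84, a receptor for medium-chain fatty acids, was the only gene called both for the interaction and for hBD3 in resting cells. It had 12.47, 12.58 and 12.71 with KLA plus hBD3, 13.05, 13.15 and 13.03 with KLA, 9.64, 9.24 and 9.30 with hBD3, and 10.65, 10.49 and 10.58 in untreated cells. The peptide was on the low side in both states, by -0.49 (adjusted p = 0.012) with KLA and by -1.18 (adjusted p = 0.0054) without it. The interaction of 0.69 ± 0.15 (SE, adjusted p = 0.0244) was thus above 0 although both differences were below it. It lost its call without hBD3 replicate 3 (0.64, adjusted p = 0.0563) and kept it in 12 of 23 other settings, and 1 of its 2 detected probes was called.

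Lysosomal and phagosomal genes were called above 0 in 9 of 29 and below in 1, with a median of 0.40. KLA minus untreated was lower for 18 of them. Tpcn1, an endolysosomal cation channel, had 9.40, 8.92 and 9.52 with KLA plus hBD3, 7.20, 7.34 and 7.46 with KLA, 10.84, 10.92 and 10.88 with hBD3, and 10.57, 10.32 and 10.84 in untreated cells, and an interaction of 1.65 ± 0.22 (SE, adjusted p = 0.00173). Tfeb, the transcription factor of lysosome biogenesis, had 1.27 (1.01 with the undetected KLA signals at the floor), the enzyme genes Gusb, Lipa and Hexa 0.92, 0.84 and 0.83, and the membrane protein gene Lamp1 0.87. The member below 0 was the protease Ctsc at -0.71 (called in 10 of 23 other settings). With hBD3 replicate 2 alone as the hBD3 group, 2 of the 29 were called above 0.

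LXR targets and lipid-handling genes had 5 of 18 called above 0 and 1 below, with a median of 0.41. With 15 of them detected, the 1 below was near the 6.09% of all detected genes, and nothing is read from it. Nr1h3, which encodes LXR alpha itself, had 10.06, 10.28 and 10.24 with KLA plus hBD3, 9.29, 9.60 and 9.84 with KLA, 9.07, 9.01 and 9.37 with hBD3, and 10.00, 9.73 and 9.74 in untreated cells. The peptide's arrays lay above KLA and below untreated, without overlap in either. The interaction was 1.29 ± 0.20 (SE, adjusted p = 0.004), from 0.62 (adjusted p = 0.0193) with KLA and -0.68 (adjusted p = 0.196) without. Pparg had 0.93 and the lipoprotein lipase gene Lpl 0.67, and the fatty acid carrier Fabp5 had -1.08. Pparg kept its call in 11 of 23 other settings, Lpl in 13 and Fabp5 in 8.

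Genes of growth restraint and the resting state had 4 of 21 called above 0 and 1 below. With 16 of them detected, the 1 below was near the 6.09% of all detected genes. Sesn1, a stress-induced inhibitor of mTORC1, had 10.79, 10.81 and 11.10 with KLA plus hBD3, 7.63, 8.05 and 8.12 with KLA, 12.14, 12.22 and 12.23 with hBD3, and 11.31, 11.76 and 11.66 in untreated cells. Here hBD3 arrays also lay above untreated ones, by 0.62 (adjusted p = 0.269), and the interaction was 2.34 ± 0.21 (SE, adjusted p = 0.000139). Ypel3 and the repressor Bcl6 both had 1.83. Irs2, an insulin receptor substrate, had -1.07 (adjusted p = 0.00405), with the peptide lower with KLA by -0.48 and higher without it by 0.59. Under median centring Irs2 had -0.68 and was not called (adjusted p = 0.256).

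Of 17 macrophage lineage genes, 16 of them detected, 3 were called above 0 and 1 below, with a median of 0.54. Over all detected genes the shares were 6.48% above and 6.09% below, and nothing is read from the 1 below. Csf1r, the M-CSF receptor, had 11.58, 11.76 and 12.11 with KLA plus hBD3, 10.64, 11.05 and 11.09 with KLA, 12.54, 12.53 and 12.53 with hBD3, and 12.68, 12.71 and 12.72 in untreated cells, and an interaction of 1.07 ± 0.19 (SE, adjusted p = 0.00935). The complement gene C1qc had 1.30 and the Fc receptor Fcgr1 1.05 (called in 7 of 23 other settings), while Mertk, which clears apoptotic cells, had -1.11. The scavenger, lectin and Fc receptor list had 3 of 30 measured members called below 0 and 2 above, with 22 detected. Over all detected genes 6.09% and 6.48% were called, and nothing is read from these counts. Among its members Fcgr3, an activating Fc receptor, had 1.01 (adjusted p = 0.00533), and Fcgr2b, the inhibitory Fc receptor, -1.84 (adjusted p = 0.00115). In bulk RNA, fewer cells of a type and less RNA per cell cannot be told apart.

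Other genes with large interactions above 0 were Apobec1, a cytidine deaminase, at 2.58, St6gal1, a sialyltransferase, at 2.40, Nceh1, a cholesteryl ester hydrolase, at 2.23, and the late endosomal GTPase Rab7b at 2.10. St6gal1 had 9.12, 9.06 and 9.36 with KLA plus hBD3, 6.42, 6.71 and 6.85 with KLA, 10.75, 10.68 and 10.72 with hBD3, and 10.80, 10.26 and 10.73 in untreated cells. Only hBD3 and untreated overlapped. Tgfbi, a matrix adhesion protein, had 1.69, and its mean of 10.86 with KLA plus hBD3 was the highest of the 4 groups.

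In 66 genes with an interaction above 0 KLA plus hBD3 was the highest group and KLA the lowest. Hp, haptoglobin, was the largest of these, with 10.01, 10.04 and 10.43 with KLA plus hBD3, 8.26, 8.51 and 8.31 with KLA, 8.92, 8.77 and 8.91 with hBD3, and 9.26, 9.04 and 9.52 in untreated cells. The KLA plus hBD3 arrays stood above all others, and hBD3 arrays stood below untreated ones. The interaction was 2.21 ± 0.19 (SE, adjusted p = 0.000139), and all 3 probes of the gene were called.

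In resting cells, hBD3 and untreated arrays did not overlap in 304 of the 1040 genes, where 18.9% of the detected genes gave such groups. In 211 of the 1040 the arrays were apart in both states and in opposite directions (3.58% of the detected genes), 107 of them with the peptide higher with KLA and lower without, and 104 the other way. The interaction is made of these same differences, so nothing is read from the counts. All resting arrays detected the gene in 196 of the 211. In 73 genes the arrays were apart in both states and in the same direction (5.72% of the detected genes).

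The gene for Toll-like receptor 2, Tlr2, whose receptor senses bacterial lipoproteins, was of this opposite kind with a small KLA difference of 0.32 (adjusted p = 0.0484). It had 13.34, 13.57 and 13.67 with KLA plus hBD3, 12.95, 12.97 and 13.07 with KLA, 12.13, 12.27 and 11.99 with hBD3, and 12.78, 12.61 and 12.63 in untreated cells. No groups overlapped, and the order was KLA plus hBD3, KLA, untreated, hBD3. The interaction was 1.07 ± 0.14 (SE, adjusted p = 0.00146), from 0.53 (adjusted p = 0.00577) with KLA and -0.54 (adjusted p = 0.15) without. Cd82, a tetraspanin, had 1.17 and Gdpd1, a phosphodiesterase, 1.13, with the same order of signs. The histone chaperone gene Anp32a had -1.03, with the peptide lower with KLA by -0.47 (adjusted p = 0.00768) and higher without it by 0.56 (adjusted p = 0.145). Under median centring Tlr2 (0.97, adjusted p = 0.118), Cd82 (1.24, adjusted p = 0.111) and Anp32a (-0.72, adjusted p = 0.333) lost their calls. Gdpd1 kept its call there (1.27, adjusted p = 0.046).

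**Figure D4:**
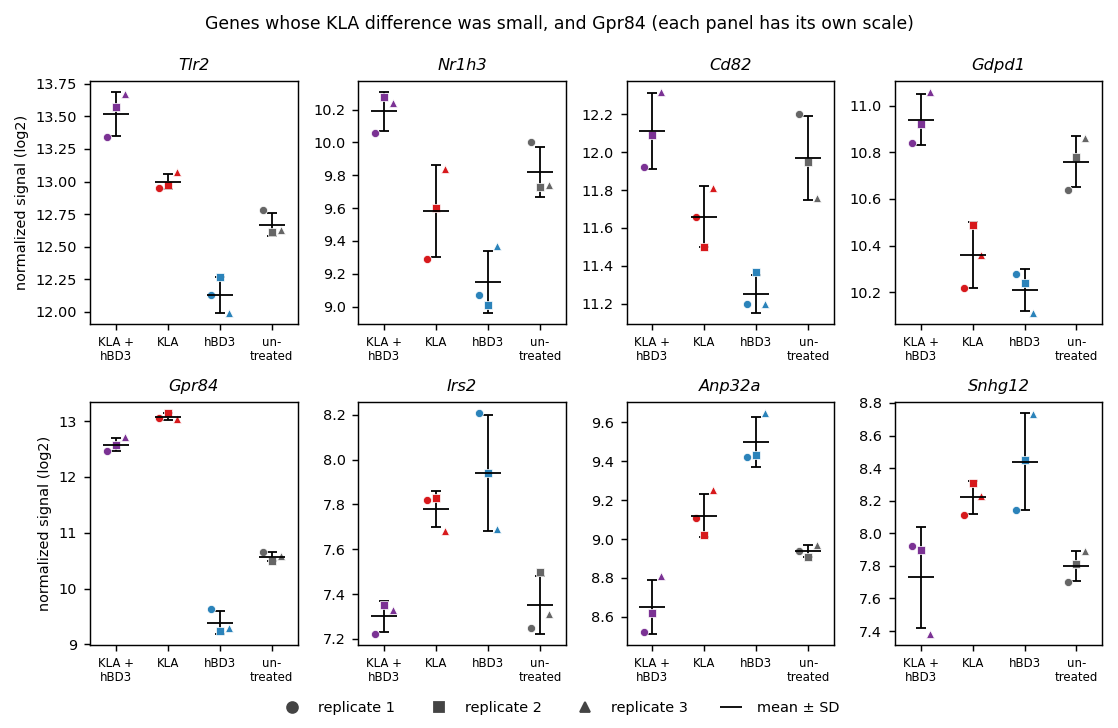
Normalized signal (log2, y axis, each panel on its own scale) of 8 genes in the 4 groups (x axis), with points as arrays and bars as mean ± SD (n = 3). Tlr2, Nr1h3, Cd82 and Gdpd1 are higher with KLA plus hBD3 than with KLA and lower with hBD3 than untreated, Irs2, Anp32a and Snhg12 are the reverse, and Gpr84 is lower with the peptide in both states.

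Among the remaining lists the calls were few. Over all detected genes 6.09% were called below 0 and 6.48% above, and nothing is read from list counts of 1 or 2. The endoplasmic reticulum list had 4 of 26 above 0 and 0 below, among them the disulfide isomerases Pdia4 at 0.88 and Pdia3 at 0.82. NRF2, metallothionein and heat shock genes had 3 of 23 below and 1 above, with the cystine transporter Slc7a11 at -1.14 and the glutathione transferase Gstm1 at 0.92. Cell cycle genes had 2 of 32 below (Ccnd2 at -2.66 and Tyms at -1.39), oxidative phosphorylation 1 of 30 below (Cycs), glycolysis 1 of 19 above (Pkm), cholesterol synthesis 1 of 13 above (Dhcr7) and apoptosis 1 of 21 above (Bcl2). Cycs, Dhcr7 and Bcl2 lost their calls in 10 or more of the other settings. Replication-dependent histones (26) and ribosomal proteins (10) had 0 calls by limma, with 4 and 1 at an unadjusted p under 0.05. Ccnd2 kept its call in 10 of 23 other settings and lost it, for one, without hBD3 replicate 1 (adjusted p = 0.115).

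**Figure D5:**
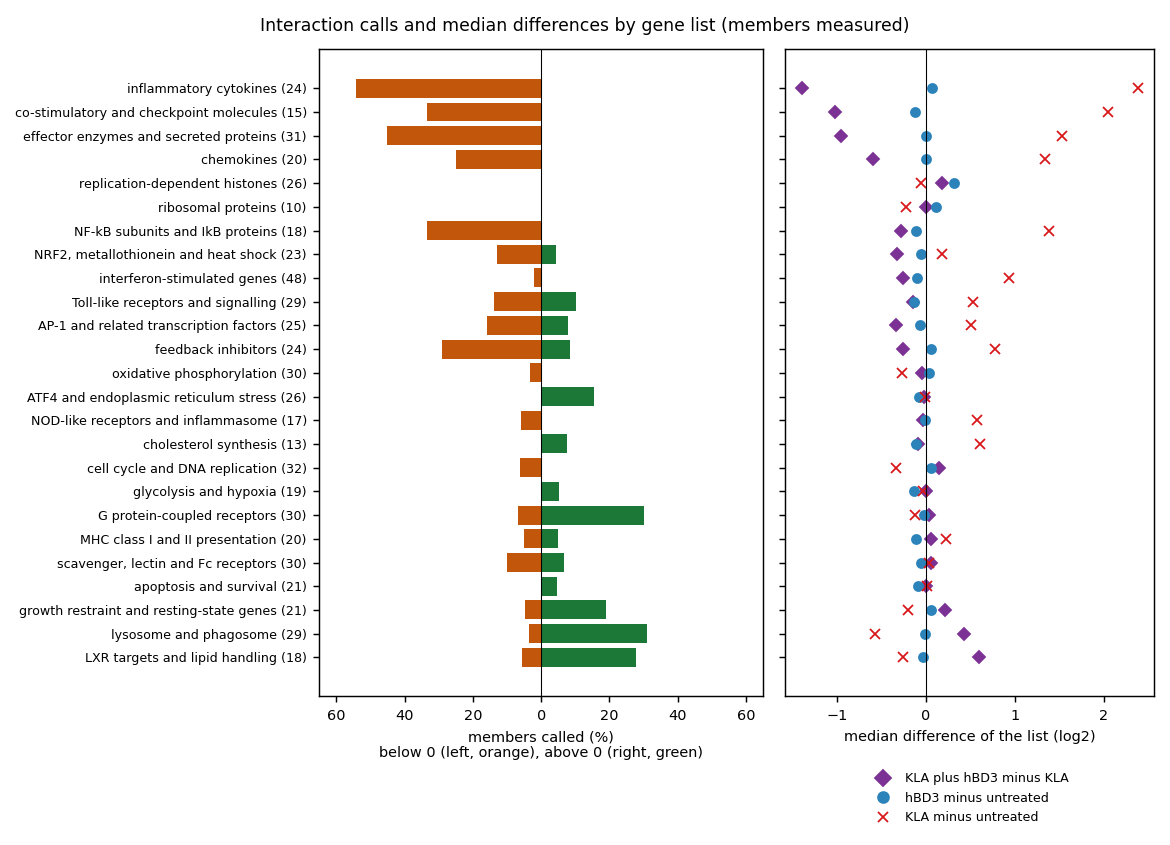
For each of 25 gene lists (rows, with the number of members measured), the left panel gives the percentage of members with an interaction called below 0 (orange) and above 0 (green), and the right panel the median difference of KLA plus hBD3 minus KLA, hBD3 minus untreated and KLA minus untreated (log2). The cytokine list, at the top, has 13 of 24 members below 0, and the lysosomal list, near the bottom, has 9 of 29 above 0.

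Promoter sequence was read for called genes, since they moved in 2 opposite sets. RefSeq windows of 300 bases (build GRCm38.p6, 250 before the start and 50 after) were held for 839 of the 1040 genes. The motifs searched on both strands were kappaB (GGGANNTTC), AP-1 (TGANTCA), the cyclic AMP response element or CRE (TGACGTCA) and the interferon-stimulated response element or ISRE (GAAANNGAA), none of which contains another. A gene was counted if any of its windows held the letters. Of the 393 genes called below 0 with a window, 5.85% held kappaB, 7.89% AP-1, 6.36% CRE and 10.7% ISRE. Of the 446 called above 0 with a window, 3.36%, 6.95%, 2.02% and 6.05% did. Over all detected genes with a window the shares were 4.23%, 6.08%, 3.82% and 8.65%. Over all 27025 genes with a window they were 4.47%, 8.97%, 2.03% and 9.76%. Counted by window instead, over all 32851 windows, they were 3.94%, 7.81%, 1.79% and 8.56%. A match is a run of letters and was not tested as a site.

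The stretches below show where such letters lie ahead of genes named above, with the motif in capitals, 5′ to 3′ on the gene's strand. Ifnb1, Gbp5 and Mmp13 had an interaction below 0 and hold kappaB or AP-1 letters, Fscn1 (-2.94, high in hBD3 replicate 3) and Nfkbid hold CRE letters, and Tlr2, Gpr84 and Zfp36l1, above 0, hold kappaB or AP-1 letters too. The positions are chr4:88522892-88522920 (minus strand) for Ifnb1, chr3:142496848-142496876 (plus) for Gbp5, chr9:7272469-7272495 (plus) for Mmp13, chr5:142960300-142960327 (plus) for Fscn1, chr7:30422345-30422372 (plus) for Nfkbid, chr3:83841621-83841649 (minus) for Tlr2, chr15:103310554-103310582 (minus) for Gpr84 and chr12:80113126-80113152 (minus) for Zfp36l1. Their first motif base lies 116, 76, 35, 45, 51, 31, 134 and 129 bases before the start, in that order.
Ifnb1 kappaB: aactgaaagtGGGAAATTCctctgaggca
Gbp5 kappaB: gagaggaaagGAAATTCCCagggctggcc
Mmp13 AP-1: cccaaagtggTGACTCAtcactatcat
Fscn1 CRE: gtggccacggTGACGTCAtcctcctata
Nfkbid CRE: gttagcgccgTGACGTCAgcgcgcggcg
Tlr2 kappaB: gctggcgaccGGGAAGTTCggggccctga
Gpr84 kappaB: taagttgcagGGGAATTTCaacagagaag
Zfp36l1 AP-1: accgcatggcTGATTCAacctcagtgt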

How the data were processed

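The authors exported probe intensity and a detection p-value per array from BeadStudio, and normalized with quantile normalization (beadarray and limma are named, versions not given in the sources used here). The deposited normalized intensity values, on a linear scale, were taken as log2. The deposited table of intensity before normalization gave the same group means to within 4.7e-10 log2 when quantile normalized here, and its columns were matched to groups only. A group-means model over all 12 arrays was fitted with limma 3.58.1 in R 4.3.3 (8 residual and 3.66 prior degrees of freedom), with two-sided p-values adjusted by Benjamini-Hochberg over 45281 probes and called under 0.05. SE is limma's and SD is between arrays. The fit was tested on simulated data with independent noise in each array. Those data had no outlying or paired arrays, so nothing about such arrays is read from them. The number of arrays, 3 a group, limits the precision.

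Each gene was read from its brightest probe naming it alone (34885 probes, 19057 genes; 18 probes named several and 10378 none). A gene was detected where all 3 arrays of at least 1 group had a detection p-value under 0.01. Named were the 14 called genes with the most negative and the 14 with the most positive interaction, 5 each way with the smallest KLA difference among those of at least 1, up to 6 each way whose interaction had the sign of the KLA difference, those also called for hBD3 alone, and up to 4 called members of each list. Genes named beyond this rule, such as Tnf, Cxcl1, Myd88 and further list members, were added after their values were seen. The members and lists were chosen with earlier results of these data known. Of the genes on the 33 lists, 65 had no probe naming them here. RefSeq promoter windows were matched by symbol.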

Additional observations from a re-analysis of the deposited data

Results flagged for a closer look

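The effect of hBD3 with KLA differed from its effect without KLA, by the test of the interaction itself, at 1542 probes, 753 above 0 and 789 below. An interaction of at least 2 in size was found in 54 called genes below 0 and 14 above. Of these, 17 also had signals that did not overlap in either state and lay in opposite directions, 13 of them detected in every resting array. Over all detected genes 3.58% were of this opposite kind. The interaction is made of these same differences, so nothing is read from the count. With the peptide lower in KLA-stimulated and higher in resting cells, the genes of the 17 were Mmp13 (-4.17), Eva1b (-2.39), Osm (-2.37), Rcsd1 (-2.28), Zc3h12a (-2.25), Srgn (-2.21), Gadd45b (-2.06), Frmd6 (-2.05) and Gphn (-2.01). For Mmp13 the lowest hBD3 array lay barely above the highest untreated one. Its highest hBD3 array was replicate 3, the one with the high stromal marker list. Without that array its interaction was -3.68. For Il1a (-4.64), Inhba (-3.22), Cx3cl1 (-2.47) and Sh3d21 (-2.37) no untreated array detected the gene (hBD3 arrays did in 2, 3, 1 and 0), so the order of their resting arrays is not read. With the peptide higher in KLA-stimulated and lower in resting cells, the genes of the 17 were Fos (2.91), Pianp (2.47), Nceh1 (2.23) and Hp (2.21). None of the 17 was called for hBD3 against untreated cells, where the smallest adjusted p among them was 0.145 (Osm).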

How the results depend on the processing

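All 1040 genes kept the sign of their interaction under every alternative that tested them, but fewer passed the threshold under several. The genes were picked on these same arrays, so nothing is read from the kept sign. Against 1542 probes called for the interaction, median centring of log2 signals in place of quantile normalization gave 425, an intensity trend in the prior variance 1027, KLA replicate 1 alone as the KLA group 984, hBD3 replicate 2 alone as the hBD3 group (added after seeing the data) 469, an adjusted p under 0.01 665, and a size of at least 1 711. Leaving out 1 array gave 1036 to 1490, and 593 of the 1040 genes were called in all 12 such fits. Median centring moved the median interaction of all detected genes to 0.247, called 265 of the 1040 genes, and put 60.5% of calls above 0 against 48.8%. For KLA plus hBD3 minus KLA, with 3165 probes, it gave 1216, and KLA replicate 1 alone gave 1763. For KLA minus untreated, with 6717 probes, KLA replicate 1 alone gave 4380, and median centring put 15% of calls higher against 46.1%. For KLA plus hBD3 minus hBD3, with 2423 probes, hBD3 replicate 2 alone gave 541, leaving out 1 array gave 1341 (without KLA plus hBD3 replicate 2) to 3136, and median centring put 10.6% of calls higher against 40.9%. For hBD3 minus untreated, with 2 probes, median centring gave 0 (5034 at an unadjusted p under 0.05), the trend 1, hBD3 replicate 2 alone 1, leaving out 1 array 0 to 3 (0 without untreated replicate 3, with 3764 at an unadjusted p under 0.05), and leaving out replicate 3 of KLA, hBD3 and untreated 53. The cause of these changes was not tested. A fit of 1 array as a group assumes that it varies like the others.

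With replicate number as a block (replicate block), 2307 probes were called for the interaction and 15 for hBD3 minus untreated. Whether arrays of the same number share a mouse is not stated in the labels. Of 18 same-number pairs, 12 deviated from their group means together with a correlation over 0.1, and the pairs ranged from -0.066 to 0.709. Of 12 arrays, 10 correlated best with one of their own number. The samples may thus be paired, and the main fit, with its SE and p-values, leaves such pairing out. A BeadChip block was not run, since the BeadChip of each array is not given in the sources used here.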
